A study of Mus musculus with 3 samples.

Results

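S100 proteins are small calcium-binding proteins of the EF-hand class, most of which work as dimers inside cells and some of which are also released as danger signals. Most of their genes lie in clusters on mouse chromosome 3, beside the genes of epidermal differentiation. S100a8 and S100a9 encode the subunits of calprotectin, a major cytosolic protein of neutrophils and monocytes that chelates metals and can engage the receptor Tlr4. The 8 genes described here are S100a4, S100a5, S100a6, S100a8, S100a9, S100a10, S100a11 and S100a13. They are 8 of the 14 S100 genes that the annotation places on chromosome 3 and 8 of 21851 protein-coding genes. The rule lists them by name and uses no measured value, but nothing in it sets them apart from the other 6. The genes were chosen with earlier results of these data known.

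Their chromatin was followed in 3 DNase-seq libraries of primary monocytes, labelled replicates 1, 2 and 4, which formed 1 group. The cells came from adult virgin female B6CASTF1/J mice aged 2 months, hybrids that carry a C57BL/6J and a CAST/EiJ copy of each autosome. DNase I cuts open chromatin, so a peak of cutting marks an accessible stretch of DNA, and a footprint is a short protected stretch inside it. The labels give 3 biosample identifiers but 1 donor identifier, and do not say that the libraries came from separate animals. Each SD (n = 3) below therefore measures how far these libraries differed, possibly for technical reasons, and no p-value was computed.

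The libraries held 54046, 42657 and 48980 peaks in replicates 1, 2 and 4, with 144028, 107955 and 119597 footprints. Read depth is unknown. Among genes that mark cell types, a promoter peak in all 3 libraries was found for 11 of 15 monocyte genes. Fcgr1, Fcgr4 and Ly6c2 had one in some libraries, and the chemokine receptor gene Ccr2 had none in any. A peak in all 3 libraries was found for 3 of 15 neutrophil genes (Mmp8, Csf3r and Cebpe) and 3 of 12 B cell genes (Ebf1, Blnk and Cd72). It was found for 1 of 12 T cell genes (Cd5), 1 of 11 matched erythroid genes (Tal1) and 0 of 12 epithelial genes. The share was 50.5% over all 21851 protein-coding genes. It was 12.7% over the 8434 genes with a promoter ratio of observed to expected CpG under 0.4, as all listed neutrophil genes had. The neutrophil share, 20%, was not below that of such promoters, so these counts do not measure how pure the cells were. Neutrophils also make calprotectin in large amounts. The promoters of their granule and surface genes Elane, Mpo, Prtn3, Ctsg, Ltf, Ngp and Ly6g had no peak in any library, and those of Camp and Cxcr2 had one in some libraries. Any share of other cells in the S100 values was not tested, and a weak peak in all cells cannot be told apart from a stronger one in a few.

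The promoters that carry the results are shown here as 300 bases of the RefSeq promoter set of GRCm38.p6, 250 before and 50 after the annotated start, written 5′ to 3′ on the strand of the gene. S100a4 and S100a8 had promoter peaks at few CpG, S100a9 is the neighbour of S100a8 without a peak, and S100a6 and S100a11 have more CpG. The cells also carry CAST/EiJ alleles, whose sequence may differ from this C57BL/6J reference. Capitals mark matches to the consensus motifs named in the next paragraph and, in S100a6, to a looser CTCF core.
S100a4, chr3:90603520-90603819, plus strand: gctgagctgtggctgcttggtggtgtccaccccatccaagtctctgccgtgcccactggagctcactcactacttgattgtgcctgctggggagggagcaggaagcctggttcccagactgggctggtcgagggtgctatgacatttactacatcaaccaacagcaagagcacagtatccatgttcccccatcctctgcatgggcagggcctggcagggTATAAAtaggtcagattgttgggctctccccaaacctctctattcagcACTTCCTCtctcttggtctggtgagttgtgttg
S100a6, chr3:90612644-90612943, plus strand: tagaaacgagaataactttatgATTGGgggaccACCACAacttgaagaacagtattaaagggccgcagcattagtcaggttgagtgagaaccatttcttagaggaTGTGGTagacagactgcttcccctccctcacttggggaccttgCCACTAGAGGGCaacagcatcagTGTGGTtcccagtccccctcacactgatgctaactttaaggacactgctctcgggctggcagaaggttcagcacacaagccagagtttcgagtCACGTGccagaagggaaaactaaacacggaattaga
S100a8, chr3:90668821-90669120, plus strand: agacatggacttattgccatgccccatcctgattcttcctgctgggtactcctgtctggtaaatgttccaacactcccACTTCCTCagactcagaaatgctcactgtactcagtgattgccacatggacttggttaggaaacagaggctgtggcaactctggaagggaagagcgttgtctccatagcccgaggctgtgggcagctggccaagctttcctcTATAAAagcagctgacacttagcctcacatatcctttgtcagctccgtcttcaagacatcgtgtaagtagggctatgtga
S100a9, chr3:90695672-90695971, minus strand: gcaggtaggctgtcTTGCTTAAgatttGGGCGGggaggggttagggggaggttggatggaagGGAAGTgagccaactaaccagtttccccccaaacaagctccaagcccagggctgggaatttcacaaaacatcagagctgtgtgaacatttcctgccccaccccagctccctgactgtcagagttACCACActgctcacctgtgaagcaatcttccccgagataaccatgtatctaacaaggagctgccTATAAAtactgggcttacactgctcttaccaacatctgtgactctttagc
S100a11, chr3:93520246-93520545, plus strand: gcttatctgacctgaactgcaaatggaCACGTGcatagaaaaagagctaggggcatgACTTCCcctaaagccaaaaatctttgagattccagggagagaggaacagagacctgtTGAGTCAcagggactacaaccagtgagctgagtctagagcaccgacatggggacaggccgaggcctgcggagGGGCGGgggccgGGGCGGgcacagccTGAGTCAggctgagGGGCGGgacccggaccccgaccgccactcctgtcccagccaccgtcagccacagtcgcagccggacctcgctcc

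Both strands of each window were searched for ETS (GGAAGT), PU.1 (GAGGAAGT, which contains the ETS motif), C/EBP (TTGCNNAA), AP-1 (TGANTCA), RUNX (TGTGGT), SP/KLF (GGGCGG), KLF (CCACACCC), STAT (TTCNNNGAA), EGR (GCGNGGGCG), E-box (CACGTG), NF-Y (CCAAT) and the TATA box (TATAAA), and for the interferon response element, the NF-kappaB motif and the CTCF core by name. A match describes letters and is not evidence of a bound protein. TATAAA stood in the promoters of S100a4, S100a8 and S100a9, at positions 220, 221 and 251 of the printed sequences, and in 13.6% of 32817 promoters of the genome. The longer PU.1 motif, named for the master regulator of myeloid cells, stood in the promoters of S100a4 and S100a8, both times on the minus strand and read as ACTTCCTC, against 3.20% of all promoters. The S100a4 match was overlapped in part by a footprint in 1 library and the S100a8 match by none in any. Here and below, an overlap of 1 base or more was counted. S100a9 held a C/EBP match, TTGCTTAA, with a GGGCGG, an ETS and a RUNX match, and C/EBP matches stood in 10.8% of promoters. S100a6 held 3 RUNX matches (any in 16.8% of promoters), an E-box and a CCAAT. S100a11 held 3 GGGCGG and 2 TGAGTCA matches, found at least once in 35.6% and 7.81% of promoters.

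The next 5 stretches are 200-base windows around open regions that stood out for their height or their footprints. They are the intronic region of S100a4, the second promoter region of S100a10 and the 3 tallest distal regions, which lie upstream of S100a9, S100a11 and S100a10. All are given on the plus strand of GRCm38.p6, and capitals here mark bases that lay under a footprint in all 3 libraries.
S100a4 intron, chr3:90604491-90604690: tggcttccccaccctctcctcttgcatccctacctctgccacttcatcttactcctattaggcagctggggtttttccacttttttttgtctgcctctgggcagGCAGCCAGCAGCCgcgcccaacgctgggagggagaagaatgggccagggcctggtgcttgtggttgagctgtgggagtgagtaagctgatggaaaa
upstream of S100a9, chr3:90710141-90710340: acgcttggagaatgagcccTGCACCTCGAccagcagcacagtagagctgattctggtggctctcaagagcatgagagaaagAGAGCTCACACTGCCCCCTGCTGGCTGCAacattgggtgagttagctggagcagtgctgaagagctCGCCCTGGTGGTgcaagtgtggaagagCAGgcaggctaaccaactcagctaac
upstream of S100a11, chr3:93506091-93506290: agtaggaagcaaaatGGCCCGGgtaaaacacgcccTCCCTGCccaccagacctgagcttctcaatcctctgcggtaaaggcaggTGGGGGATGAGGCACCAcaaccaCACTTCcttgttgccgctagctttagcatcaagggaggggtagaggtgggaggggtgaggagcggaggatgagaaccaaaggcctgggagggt
upstream of S100a10, chr3:93547181-93547380: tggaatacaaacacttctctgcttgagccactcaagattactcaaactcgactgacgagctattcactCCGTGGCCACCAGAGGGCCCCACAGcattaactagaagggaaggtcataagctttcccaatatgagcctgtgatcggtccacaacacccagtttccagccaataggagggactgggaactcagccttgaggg
S100a10 intron, chr3:93556051-93556250: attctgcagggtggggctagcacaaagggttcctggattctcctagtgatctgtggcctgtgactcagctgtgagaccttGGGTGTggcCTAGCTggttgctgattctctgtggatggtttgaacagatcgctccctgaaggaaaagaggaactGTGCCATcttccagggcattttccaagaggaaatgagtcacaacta

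A promoter peak is a peak that touches the 1 kb on either side of any protein-coding transcription start site (TSS) of a gene. Of the 8 genes, 6 had one in all 3 libraries, a share of 75%, against 50.5% of all 21851 protein-coding genes. S100a5 and S100a9 had none in any library. Among peaks above the median height of their library, 3 of the 8 had one (S100a4, S100a6 and S100a10), against 44% of all genes. Heights are the deposited cleavage densities, and each is also given as its percentile among all peaks of the same library, because the scale of the heights is not stated. Of the other 6 annotated S100 genes of chromosome 3, 2 had a promoter peak in all libraries (33.3%), S100a1 and S100a3. S100a2, S100a7a, S100a14 and S100a16 had none in any. The 75% is thus the share of the 8 genes described here and does not stand for all S100 genes of the chromosome. S100a1 also shares its peak with S100a13. S100b, S100g and S100z, which lie on other chromosomes, had none in any.

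S100a8 and S100a9 are transcribed toward each other from starts 26.7 kb apart, and only S100a8 had a promoter peak. The S100a8 promoter peak, at chr3:90668901-90669280 across the first exon, had heights of 0.841, 0.745 and 0.990 in replicates 1, 2 and 4. Those heights ranked at percentile 45.1, 35.8 and 44.0 of the peaks of each library (41.6 ± 5.08, SD, n = 3). S100a8 thus had a peak of less than median height in each library. It held 5, 1 and 2 footprints, and a run of 9 bases, GCAGCTGGC at chr3:90669020-90669028, was protected in all 3 libraries. At S100a9 no base within 1 kb of either annotated start was listed with a false discovery rate (FDR) under 0.05 in any library, and no footprint was called there. The peak nearest to the S100a9 starts lay 14.4 to 14.5 kb away. Such a lack is the usual state of closed promoters in these files: of 421 chromosome 3 genes with no promoter peak, 98.1%, 98.6% and 99.5% had no listed base within 1 kb in replicates 1, 2 and 4.

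The tall region that is nearest to S100a9 lies upstream of it, in intergenic sequence at chr3:90710141-90710340, 14.5 kb from the start. Its heights were 3.41, 3.20 and 4.27 in replicates 1, 2 and 4 (3.63 ± 0.568, SD, n = 3), and its best FDR was 4.88e-27, 8.94e-26 and 3.78e-33. It was taller than the S100a8 promoter peak in every library, by a factor of 4.22 ± 0.148 (SD, n = 3), and its mean height ranked at percentile 94.1 of the 20762 distal regions of the genome with a peak in all 3 libraries. Each library called 4 footprints in it. The longest stretch protected in all libraries was 29 bases, chr3:90710222-90710250, in capitals in the printed window, and it contained a match to the CTCF core, CCAGCAGGGGGC on the minus strand at chr3:90710234-90710245. CTCF is the zinc finger protein that anchors many chromatin loops. The other 3 regions near these genes that all libraries shared were lower. They lie between S100a6 and S100a8, at chr3:90639841-90640017, chr3:90644301-90644480 and chr3:90652981-90653160, with mean heights of 0.767 ± 0.101, 0.749 ± 0.146 and 0.735 ± 0.178 (SD, n = 3 each). Only the tall region remained in all 3 libraries in the shorter, stricter peak list that was also deposited.

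S100a4, S100a5 and S100a6 stand in a row, with starts 4.75 and 4.36 kb apart, and only the middle gene lacked a promoter peak. S100a4 encodes a partner of nonmuscle myosin that is linked to cell movement. It had 2 promoter regions in every library, one at its TSS, chr3:90603621-90603875, and one in an intron, chr3:90604481-90604700. The TSS region had heights of 1.76, 1.37 and 1.77, and the intronic region 3.16, 2.21 and 3.73, in replicates 1, 2 and 4. The intronic region was thus the taller one in each library, by a factor of 1.84 ± 0.247 (SD, n = 3), and overlaps a second annotated gene, Gm42674. It gave S100a4 the highest percentile of the 8 genes, 85.2, 77.5 and 82.6 (81.8 ± 3.90, SD, n = 3). A run of 13 bases in it, GCAGCCAGCAGCC, was protected in all 3 libraries.

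S100a6, which encodes calcyclin, had 1 promoter region that all libraries shared, chr3:90612721-90612937, with heights of 1.40, 1.58 and 2.30 in replicates 1, 2 and 4. They ranked at percentile 66.1, 68.5 and 73.0 (69.2 ± 3.49, SD, n = 3). A further weak peak, chr3:90613848-90613980 with height 0.734, was called in replicate 1 alone. The 10 bases GGACCTTGCC, chr3:90612784-90612793, were protected in every library. They run into a CTCF-like match, CCACTAGAGGGC at chr3:90612792-90612803, found with a looser core that frees 1 more base and was chosen after the data were seen. That looser core stood in 2.43% of promoters. S100a5, known mainly from olfactory neurons, had no listed base and no footprint within 1 kb of either of its starts. Its nearest peaks were those of its neighbours, 2.91 to 3.84 kb from its starts.

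S100a10 and S100a11 lie 34.6 kb apart and both encode partners of annexins. S100a10, or p11, binds annexin A2 at the cell surface and has lost calcium binding. Its TSS region, chr3:93555041-93555420, had heights of 1.24, 1.23 and 1.56 in replicates 1, 2 and 4. Its second promoter region, chr3:93556021-93556280 in an intron, had 1.31, 1.17 and 1.53. The S100a10 regions were of like height, the intronic one at 0.998 ± 0.0565 of the TSS one (SD, n = 3), and the taller of them ranked at percentile 63.8, 60.0 and 61.7 (61.8 ± 1.90, SD, n = 3). In the intronic window a CCACACCC match at chr3:93556131-93556138, overlapped by footprints in all libraries, lay between 2 AP-1 matches that none covered.

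S100a11 binds annexin A1. Its TSS region, chr3:93520181-93520640, had heights of 0.866, 0.904 and 1.30 in replicates 1, 2 and 4, and its intronic region, chr3:93520741-93521140, had 0.965, 0.674 and 1.23. Neither S100a11 region was taller in every library. The taller of them ranked at percentile 51.6, 46.2 and 55.1 (51.0 ± 4.51, SD, n = 3). S100a13, needed for the unconventional export of Fgf1 and interleukin 1 alpha, had regions at chr3:90514206-90514580 and chr3:90514841-90515151. The first, at the TSS, had heights of 1.06, 0.825 and 1.25, and the second 0.569, 0.630 and 0.718. S100a13 was thus taller at its TSS in each library, the second region standing at 0.626 ± 0.121 of it (SD, n = 3). The TSS peak ranked at percentile 55.3, 41.3 and 53.8 (50.1 ± 7.69, SD, n = 3). Its start lies 43 bp from that of S100a1, which is read in the other direction, so the S100a13 peak is also the S100a1 peak and cannot be assigned to either gene.

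Ranked by mean percentile, the promoters ran in the order S100a4, S100a6, S100a10, S100a11, S100a13 and S100a8. The ranges over libraries did not overlap between S100a4 and S100a6, between S100a6 and S100a10, or between S100a10 and S100a11. The ranges of S100a11 and S100a13 overlapped, as did those of S100a13 and S100a8, so these neighbours did not differ beyond their spread, although S100a8 was below both in each library. Percentiles depend on the list ranked. In the shorter list, which leaves out weak peaks, S100a11 stood at 29.8, S100a13 at 29.1 and S100a8 at 18.9, in the same order. Promoter heights were the same in both lists, so the order within each library could not change. The order of S100a4 and S100a6 depends on the intronic peak: with windows of 500 bp on either side, S100a4 had a percentile of 67.5 and S100a6 of 69.2. All 6 lay below the typical open promoter. The median percentile of the 6 was 59.6, 53.1 and 58.4 in replicates 1, 2 and 4, and that of the 11029 genes with a promoter peak in all libraries was 88.5, 85.4 and 87.1. No S100 promoter reached that median in any library. At least 2 promoter regions shared by all libraries were found for 4 of the 6 genes (S100a4, S100a10, S100a11 and S100a13), against 30.2% of the 11029. This count depends on the 1 kb window: the second regions of S100a4 and S100a10 fall outside windows of 500 bp. That of S100a10 has its middle 1.07 kb from the TSS. All 6 had a footprint in a promoter peak in every library, as did 95.4% of the 11029.

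**Figure D1:**
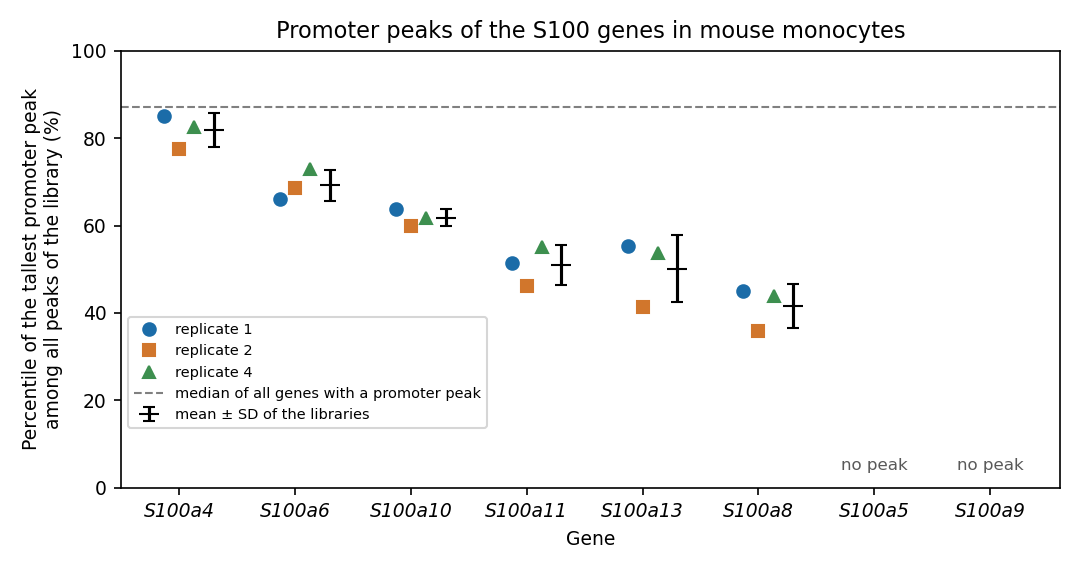
Percentile of the tallest promoter peak of each S100 gene among all peaks of its library (percent, vertical axis), by gene. Points are the 3 libraries, black marks are the mean ± SD, and the dashed line is the mean over libraries of the median of the 11029 genes with a promoter peak in all libraries. S100a4 stands highest, every point lies under the line, and S100a5 and S100a9 have no peak.

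CpG content, high in the promoters of most housekeeping genes, varied widely among the S100 genes. The ratio of observed to expected CpG, taken over 500 bp on either side of the TSS, was 0.116 for S100a5, 0.136 for S100a9, 0.174 for S100a8, 0.179 for S100a4, 0.412 for S100a13, 0.413 for S100a6, 0.519 for S100a10 and 0.542 for S100a11. The median was 0.296 over the 8 S100 genes and 0.571 over all genes. Of the 4 S100 genes with a ratio under 0.4, S100a4 and S100a8 had a promoter peak in all libraries, against 12.7% of the 8434 genes under that ratio. Under 0.5, a limit added after the data were seen, 4 of 6 S100 genes had one, against 16.3% of 9807 genes. The median percentile of the open genes under 0.4 was 70.9, 64.2 and 68.5 in replicates 1, 2 and 4. S100a4 lay above that median in every library and S100a8 below it.

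**Figure D2:**
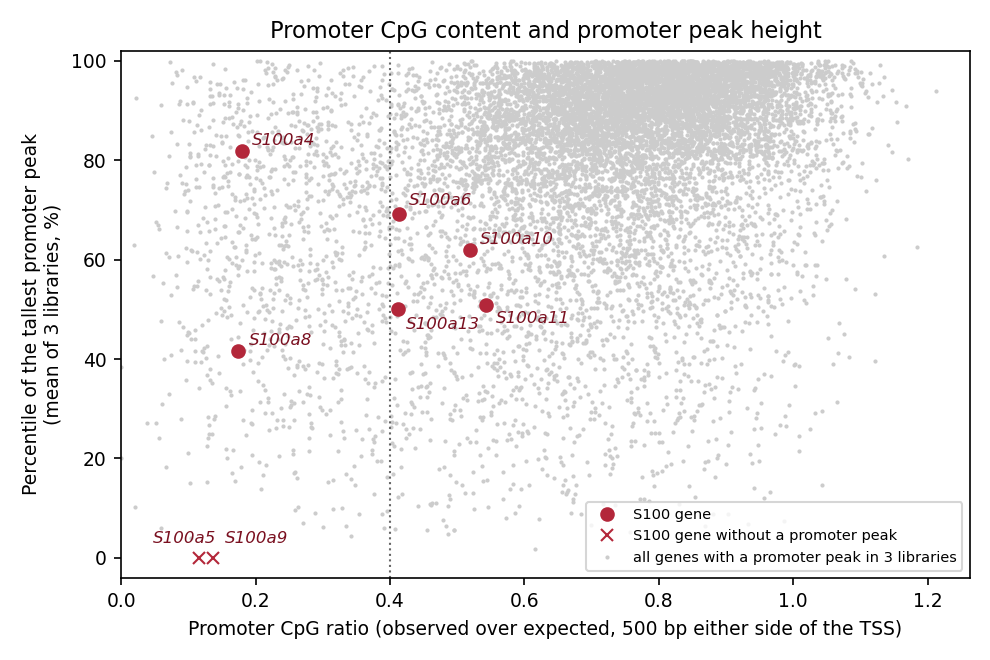
Mean percentile of the tallest promoter peak over the 3 libraries (percent, vertical axis) against the promoter CpG ratio (horizontal axis) for S100 genes in red and for all genes with a promoter peak in all libraries in grey. The dotted line marks a ratio of 0.4. S100a4 and S100a8 are open at ratios of 0.179 and 0.174, and the crosses of S100a5 and S100a9, which had no promoter peak, are drawn at 0.

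Distal peaks are those that lie outside every promoter window and within 50 kb of the most upstream coding TSS of a gene. The mean number per S100 gene was 5.13, 4.25 and 5 in replicates 1, 2 and 4 (4.79 ± 0.473, SD, n = 3), against 2.68, 2.04 and 2.46 per gene over all genes (2.40 ± 0.326, SD, n = 3). The medians were 6, 5 and 6 for the S100 genes and 2, 1 and 2 for all genes. The S100 genes are neighbours and share these peaks, so they are not independent, and the distinct peaks numbered 19, 15 and 18. S100a11 had 7, 6 and 6, S100a10 had 7, 5 and 7, and S100a4, S100a5 and S100a6 had 6, 5 and 6 each. S100a8 had 4 in each library, S100a13 had 3, 2 and 3, and S100a9 had 2 in each. With the shorter list the means were 2.50 per S100 gene and 1.59 over all genes.

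Merged over libraries, the distal peaks formed 21 regions, of which 13 had a peak in all 3 libraries, 5 in 2 libraries and 3 in 1. Of the 21, 13 were intergenic, 7 intronic and 1 exonic, and 14 lay within reach of more than 1 S100 gene. All 8 genes had at least 1 region that all libraries shared, against 58.9% of all genes. The genes without a promoter peak had more than that: S100a5 had 4 and S100a9 had 2, where at least 2 were found for 26.6% of the 10822 genes without a promoter peak in all libraries. None was theirs alone: those of S100a5 were also counted for S100a4 and S100a6, and those of S100a9 for S100a8. A region in the gene S100a3, chr3:90585701-90585940, 18.0 kb upstream of S100a4, is counted for 2 libraries with heights of 1.58 and 1.55 in replicates 1 and 4. Replicate 2 had a peak of height 1.14 at the same place that reached into the S100a3 promoter window and was counted there.

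**Figure D3:**
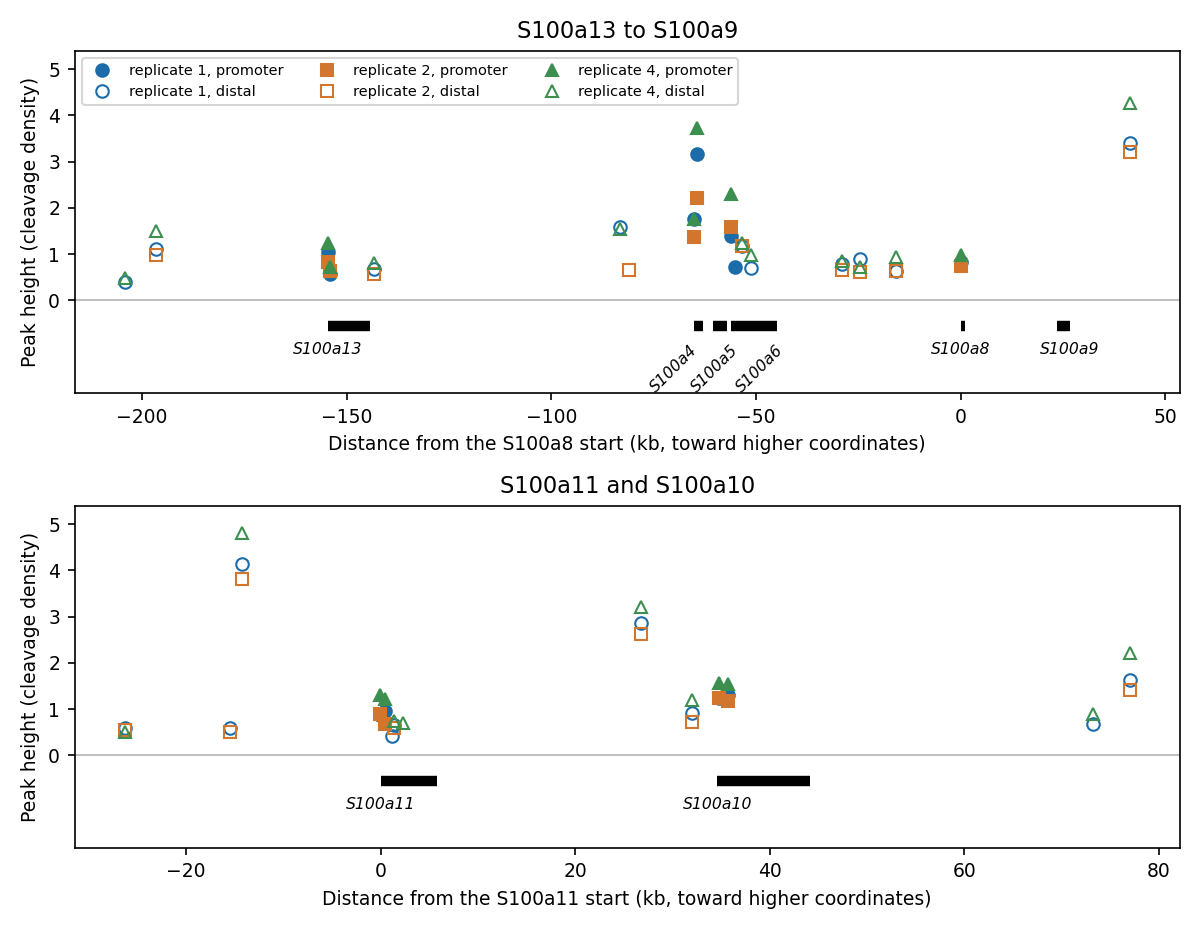
Height of each promoter peak (filled) and distal peak (open) in cleavage density (vertical axis) against its distance in kb from the S100a8 start (top) or the S100a11 start (bottom). Black bars are the genes. The tallest points of both maps are distal, at the right end of the top map, upstream of S100a9, and at the left of the bottom map, upstream of S100a11.

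Around S100a11 and S100a10, 3 of the shared distal regions were taller on average than the promoters of both genes. The region chr3:93506061-93506320, 14.3 kb upstream of S100a11 in intergenic sequence, had heights of 4.15, 3.81 and 4.81 in replicates 1, 2 and 4 (4.26 ± 0.510, SD, n = 3). It was the tallest of all 21 in every library and ranked at percentile 96.0 of the 20762 shared distal regions of the genome. Its height was 4.24 ± 0.543 times that of the S100a11 promoter (SD, n = 3). The longest of 4 runs protected in all libraries had 17 bases, chr3:93506175-93506191, and the run nearest to it had 6, chr3:93506198-93506203. Next to each other there stood 2 RUNX matches (chr3:93506188-93506193 and chr3:93506194-93506199) and an ETS match (chr3:93506199-93506204) on the minus strand, each overlapped by a footprint in every library. Single matches are common: 20.4% of shared distal regions held a RUNX and 30.8% an ETS match.

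The region chr3:93547201-93547360, 7.80 kb upstream of S100a10, had heights of 2.87, 2.62 and 3.21 (2.90 ± 0.296, SD, n = 3; percentile 90.3). A run of 25 bases, chr3:93547249-93547273, was protected in all libraries. It contained CCACCAGAGGGC, a match to the looser CTCF core only. The next tallest, chr3:93597221-93597700, lay 42.4 kb downstream of the S100a10 start with heights of 1.62, 1.41 and 2.20 (1.75 ± 0.410, SD, n = 3; percentile 74.4). The tallest distal region within reach of S100a10, the one upstream of S100a11, stood at 3.18 ± 0.152 of the S100a10 promoter height (ratio, SD, n = 3). None of these distances shows which gene, if any, a region acts on.

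**Figure D4:**
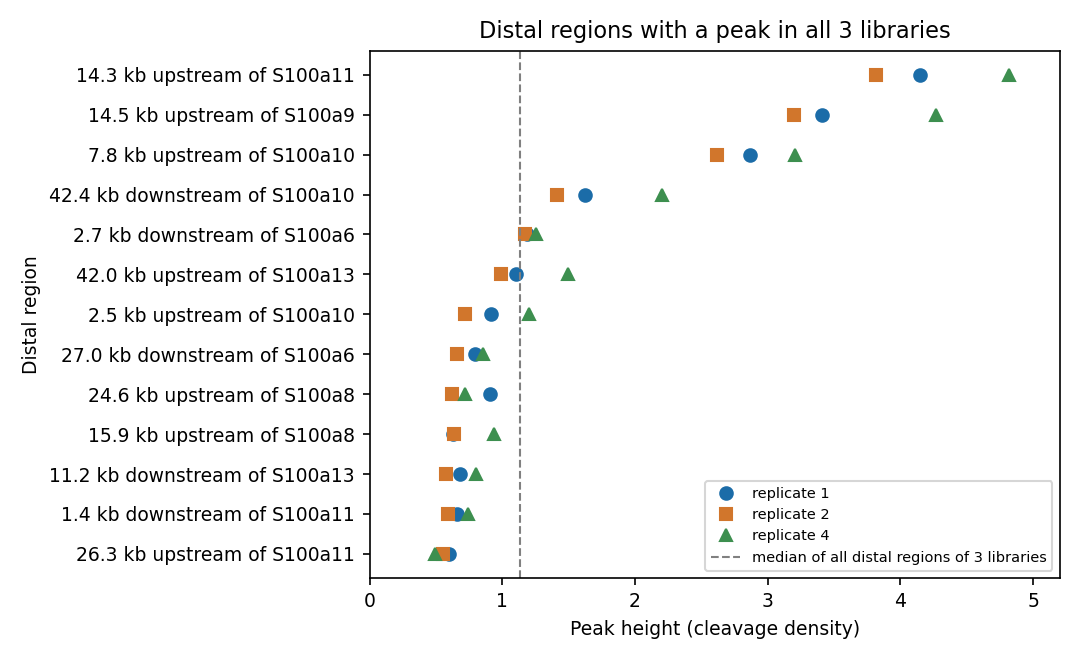
Height in cleavage density (horizontal axis) of the 13 distal regions that all 3 libraries shared, named by the nearest S100 gene. Points are libraries and the dashed line is the median of 20762 such regions of the genome, 1.13. The regions upstream of S100a11, S100a9 and S100a10 lie far to the right of it in each library, and the 7 lowest on average lie to its left or across it.

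Near S100a13 and the S100a4 group the distal regions were modest. The tallest shared one of S100a13, chr3:90472301-90472520, lay 42.0 kb upstream with heights of 1.10, 0.993 and 1.50 in replicates 1, 2 and 4, which was 1.15 ± 0.0891 times the promoter (SD, n = 3). Near S100a4 and S100a6 it was chr3:90615441-90615673 in an intron of S100a6, with 1.19, 1.17 and 1.25. This was 0.414 ± 0.103 of the S100a4 and 0.711 ± 0.154 of the S100a6 promoter height (SD, n = 3 each). Over the 8 genes, the tallest distal peak stood above the tallest promoter peak in every library for 6, all but S100a4 and S100a6, against 29.5% of all genes. Of these 6, S100a5 and S100a9 had no promoter peak to exceed. Nor are the 6 independent: S100a8 and S100a9 had the same tallest distal region, and so did S100a10 and S100a11. Over the 13 shared regions the median height was 0.945, below the 1.13 of the genome.

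The CTCF core was matched in the windows of 3 of the 13 shared regions, upstream of S100a9, at chr3:90652981-90653160 and at chr3:93494081-93494285, against 10.4% of shared distal regions of the genome. The looser core was matched in 6 of 13, against 19.5%. Because it was chosen after the data were seen, that count is descriptive only. The matches in the tall regions upstream of S100a9 and S100a10 and in chr3:90644301-90644480 were overlapped by footprints in all libraries, the others in 2.

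**Figure D5:**
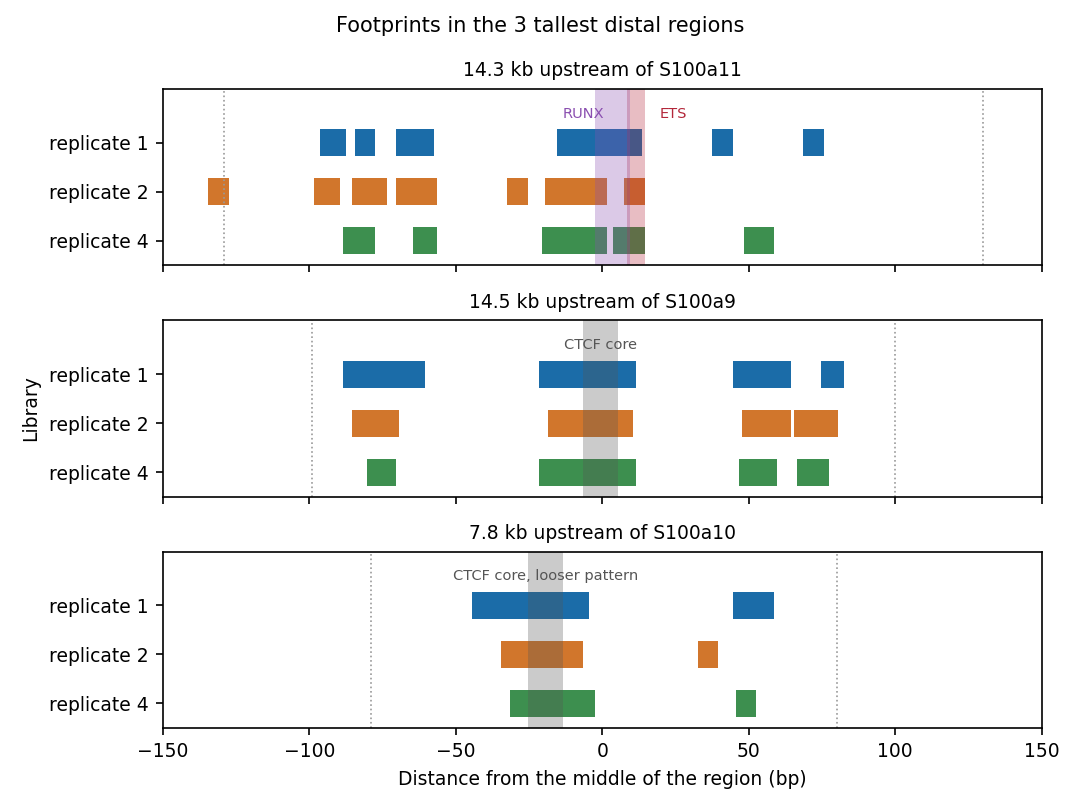
Footprints (bars) by library in the 3 tallest distal regions near S100 genes, against the distance in bp from the middle of each region. Dotted lines are the ends of the region and shaded bands are motif matches. In the upper panel footprints of all libraries touch the RUNX and ETS matches, and in the other panels a footprint of each library spans a CTCF match, to the core upstream of S100a9 and to its looser form upstream of S100a10.

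The S100 genes stood on either side of a long stretch with few peaks. Between the S100a13 and S100a9 starts, 181 kb, there were 11 regions with a peak in all libraries, or 6.07 per 100 kb, and between S100a11 and S100a10 there were 4, or 11.6 per 100 kb. Chromosome 3 as a whole had 0.945 per 100 kb, or 1512 regions. Genes also stood closer in the first interval, with 9 between its ends in 181 kb, against 999 in the 159939 kb of the chromosome. The densities were not corrected for gene spacing, so they do not show a trait of the S100 genes. The 2825 kb between S100a9 and S100a11 held 60 protein-coding genes, none with a promoter peak in all libraries. They held 7 regions with a peak in all libraries, or 0.248 per 100 kb, among them the tall regions upstream of S100a9 and S100a11. Without the 20 kb at each end there were 4, or 0.144 per 100 kb. A promoter peak in all libraries was found for 51.6% of the 999 genes of chromosome 3. Listed genes of epidermal differentiation, Lor, Ivl and Flg among them, had one in 0 of 14 cases. All 14 lie between S100a9 and S100a11, among the 60 genes above, so this count is not a further result. Within 50 kb of an S100 start lay 11 other genes. Of these, 6 had promoter peaks in all libraries, the tallest that of Chtop, 4.94 kb from S100a13. The S100a13 heights of 1.06, 0.825 and 1.25 in replicates 1, 2 and 4 stood against 10.8, 9.11 and 15.6 at Chtop. Pglyrp4, 31.2 kb from S100a9, and S100a7a, 14.7 kb from S100a8, had none in any library.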

How the data were processed

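The authors deposited per-library files on mm10, per the labels: 2 peak lists with a height for each peak (signal, cleavage density, scaling not stated), footprints, and bases with an FDR (a p-value kind) under 0.05. Which aligner, peak caller and footprint method were used is not given in the sources used here. Read depth is unknown. The longer peak list was used. Score, p-value and q-value columns of the deposited lists held constants and were not used. Genes were protein-coding genes of GENCODE M21 (21851 with a coding TSS). Peaks of the libraries were merged by overlaps of 1 bp, promoter and distal peaks separately. Shares over genes were counted on all chromosomes, and no test was run, since the libraries form 1 group. Every S100 gene was named, and of each locus the tallest shared regions. The low CpG limit was 0.4. Motifs were searched in 300-base promoters of RefSeq, which held 7 of the 8 genes (all but S100a10), and in 200-base windows around region middles. Window counts and motif scans were tested on simulated data. Scripts used Python 3.11.15, numpy 2.4.6, pandas 2.3.3 and pysam 0.24.0. The genes, lists (monocyte, neutrophil, B cell, T cell, erythroid, epithelial, epidermal, other S100 genes, S100 partners) and rules were chosen with earlier results of these data known. Alternatives tried were the shorter list, peaks above the median height, other windows, TSS and overlap rules, and each library left out.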

Additional observations from a re-analysis of the deposited data

How the results depend on the processing

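Of 79 values that answer the main counts under other settings, 67 did not move, meaning within 1.5 times for a count and within 1 SD between libraries for the mean number of distal peaks. Every value with 1 library left out was among them. Some of the 67 could not have moved, so their number overstates stability. Distal windows do not enter promoter counts, footprint counts or the promoter order. The shorter list kept the promoter heights, which fixes the promoter order within each library. Leaving out 1 of 3 libraries cannot shift a mean by 1 SD, and can raise a count of 6 genes only to 8, within 1.5 times. Peaks above the median height of their library left 3 genes with a promoter peak in all libraries in place of 6 (44% of all genes), 3 with a footprint, 3 of 6 places of the promoter order, 8 distal regions in place of 21, 1 shared region near S100a8 and S100a9 in place of 4, and a mean of 1.71 distal peaks per S100 gene against 1.18 over all genes. The shorter list left 1 shared region near S100a8 and S100a9 and a mean of 2.50 distal peaks against 1.59. That mean, 4.79 in the report, was 5.88 with promoter windows of 500 bp and 3.25 with 2000 bp, and 2.08 and 7.38 with distal windows of 25 and 100 kb. The 500 bp windows put S100a6 above S100a4, and leaving out replicate 2 put S100a13 above S100a11. Of values for single genes, 56 moved by more than the SD between libraries and 198 did not. Those 198 include values under settings they do not use, such as distal windows for promoter heights. All 6 promoter percentiles fell in the shorter list, to between 18.9 for S100a8 and 73.4 for S100a4. Regions joined only at 50% overlap were counted for the distal regions alone. No paired analysis was possible because there was 1 group. Without read depth, a missing peak is not shown to be closed chromatin, and footprint numbers cannot be set against cut numbers.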

Other observations

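Genes of the receptors and partners that S100 proteins are known to bind were mostly open. Of 18 listed, 13 had a promoter peak in all 3 libraries, against 50.5% of all genes. The list was made by hand with earlier results of these data known. Promoter CpG ratios of the listed genes ran from 0.123 for Ager to 0.931 for Cacybp, and the share was not compared within a CpG class. Anxa2, whose product joins S100a10, ranked at percentile 83.7, 84.4 and 87.1 in replicates 1, 2 and 4, and Ahnak, a scaffold of that complex, at 83.6, 82.5 and 85.7. Both stood above S100a10 itself in every library, but not above the median of the 11029 genes with a promoter peak in all libraries. Anxa1, the partner of S100a11, was lower, at 43.1, 26.8 and 51.8. Myh9, the nonmuscle myosin heavy chain bound by S100a4, ranked at 98.0, 97.0 and 97.8, and Cacybp, named for its binding of calcyclin, at 99.9, 99.9 and 99.7. Of the calprotectin receptors, Tlr4 ranked at 80.2, 70.4 and 77.3, while Ager had no promoter peak in any library. Il1a and Fgf1, whose products S100a13 helps to export, had none either. Cd36 and Plau had a peak in some libraries.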
